A study of Mus musculus with 9 samples.

Results

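The translation initiation and elongation factors measured here were all genes whose single symbol in the array annotation starts with Eif or Eef followed by a digit. The rule uses names and no measured value. It found 58 of 18193 genes, represented by 155 of 45037 probe sets that are not controls, and also takes in the eIF2alpha kinases (Eif2ak genes), the eIF4E-binding repressors (Eif4ebp genes) and the enzymes that modify eEF1A and eEF2. Whole left ventricle of C57BL/6 males was taken at 6 weeks from 4 samples with transaortic constriction (TAC) and 5 with a sham operation, each on 1 array. TAC places a narrowing on the aorta, so that the ventricle pumps against a raised pressure, and was used to induce heart failure. Neither group is labelled with an altered gene, and the labels used here give no age. No label says outright that the 9 arrays stand for 9 animals, so p-values describe the spread among samples, which may be partly technical.

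Protein synthesis starts when eIF2 brings the initiator tRNA to the small ribosomal subunit, with eIF1, eIF1A, eIF3 and eIF5 bound. The eIF4 factors recognise the cap of the mRNA, unwind its leader and join it to that complex. Elongation then needs eEF1A, which delivers aminoacyl-tRNA, and eEF2, which moves the ribosome along the mRNA. The main brakes on these steps are kinases that phosphorylate eIF2alpha, small proteins that bind eIF4E while mTORC1 is inactive, and eEF2 kinase. Growth of heart muscle under pressure load is known to involve more protein synthesis, much of it controlled by phosphorylation of these factors, which an RNA array does not measure.

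Values are RMA values on a log2 scale, and every array had the same median of 6.5661 over all probe sets. A difference is TAC minus sham of these values, and its standard error (SE) is that of the limma fit. A gene passed where its Benjamini-Hochberg adjusted p over all 18193 genes was below 0.05. Each gene is given by its brightest probe set, taken over the 9 arrays. Levels of different genes are not compared, since probe sets differ in brightness for the same amount of RNA. The 8 cardiomyocyte markers, such as Myh6 and Tnnt2, each had a mean above 13, with 0 higher and 1 lower in TAC. Differences can be compressed near the top of the scale, and Myl3 read 14.77 in every array, so a rise could be missed. The log2 of their summed level was slightly lower in TAC without overlap, from 17.25 to 17.28 in sham and from 17.20 to 17.21 in TAC. Endothelial markers gave 0 higher and 1 lower of 6, and markers of smooth muscle and pericytes 2 higher and 2 lower of 6. The smooth muscle and pericyte sums ran from 13.97 to 14.14 in sham and from 13.89 to 13.95 in TAC. The endothelial sums of sham and TAC overlapped. Of 6 fibroblast markers 4 were higher in TAC. These 4 were the collagen and proteoglycan genes of the list, while Pdgfra (difference 0.04) and Tcf21 (0.13) did not pass. The log2 of the summed level of all 6 ran from 13.78 to 13.87 in sham and from 14.29 to 14.63 in TAC. Of 6 macrophage markers 4 were higher, with sums from 12.21 to 12.50 in sham and from 12.63 to 12.82 in TAC. Cd68 (0.47) and Cd163, which went the other way at -0.40, did not pass. Markers of lymphocytes (4 of 4 measured), red cells (2 of 3) and mesothelium (3 of 4) lay mostly below the array median, and none of these lists had a member past the threshold. The part of the cell types in the results was not tested. In whole tissue, fewer cells of a type and less RNA per cell cannot be told apart.

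Among the 58 factor genes, 13 were higher and 3 were lower in TAC. The higher genes were Eif1a, Eif4ebp1, Eif5a2, Eif4a1, Eif4e2, Eif6, Eef1e1, Eif3b, Eef1a1, Eif3a, Eif4b, Eif2b3 and Eif2s2, with differences from 0.72 down to 0.17. The lower genes were Eef1akmt1, Eef2k and Eif4a2, with differences from −0.43 to −0.22. The share called in either direction was 27.6% of the members, near the 25.1% of all genes tested. By direction, 22.4% of the members were higher beside 12.8% of all genes, and 5.17% were lower beside 12.3%. The median difference was 0.04 over the members and -0.00 over all genes, with 32 members positive and 26 negative.

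The split between higher and lower members moved with the setting. Factor genes are mostly well expressed, with 54 of 58 above the median gene. With only genes above that median tested, 45.3% of genes were called (21.2% higher and 24.2% lower). Of the 54 factors 20 were called, 14 higher and 6 lower. That called share lay below the 45.3%, the higher share somewhat above 21.2% and the lower share below 24.2%. The median over the 18193 genes tested, unlike that over all probe sets, differed between arrays. With each array centred on that median, the counts were 10 higher and 8 lower among the members, and the higher share of all called genes was 40.5% in place of 51.1%. The centring shifted the median of all genes to -0.05. At an unadjusted p below 0.05 the members numbered 22, beside 35.8% of all genes.

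The 2 groups did not overlap for 21 members, or 36.2%, beside 25.2% of all genes. In 16 of these every TAC array was above every sham array, a pattern seen in 13% of all genes, and in 5 every TAC array was below, seen in 12.2%. Of the 16 members past the threshold, Eef1akmt1 was the one whose groups overlapped. The replicates of the members were close together: the median standard deviation (SD) over members was 0.08 in sham and 0.07 in TAC, beside 0.15 and 0.12 over all genes. Most members lie above the median gene in level, and neither the overlap nor the SD was set beside genes of similar level. Sham 2 gave the lowest sham value for 24 of 58 members and the highest for 8. Without Sham 2 the counts were 13 higher and 6 lower, and leaving out another array gave 9 to 12 higher and 1 to 3 lower, the fewest of both without TAC 1.

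**Figure D1:**
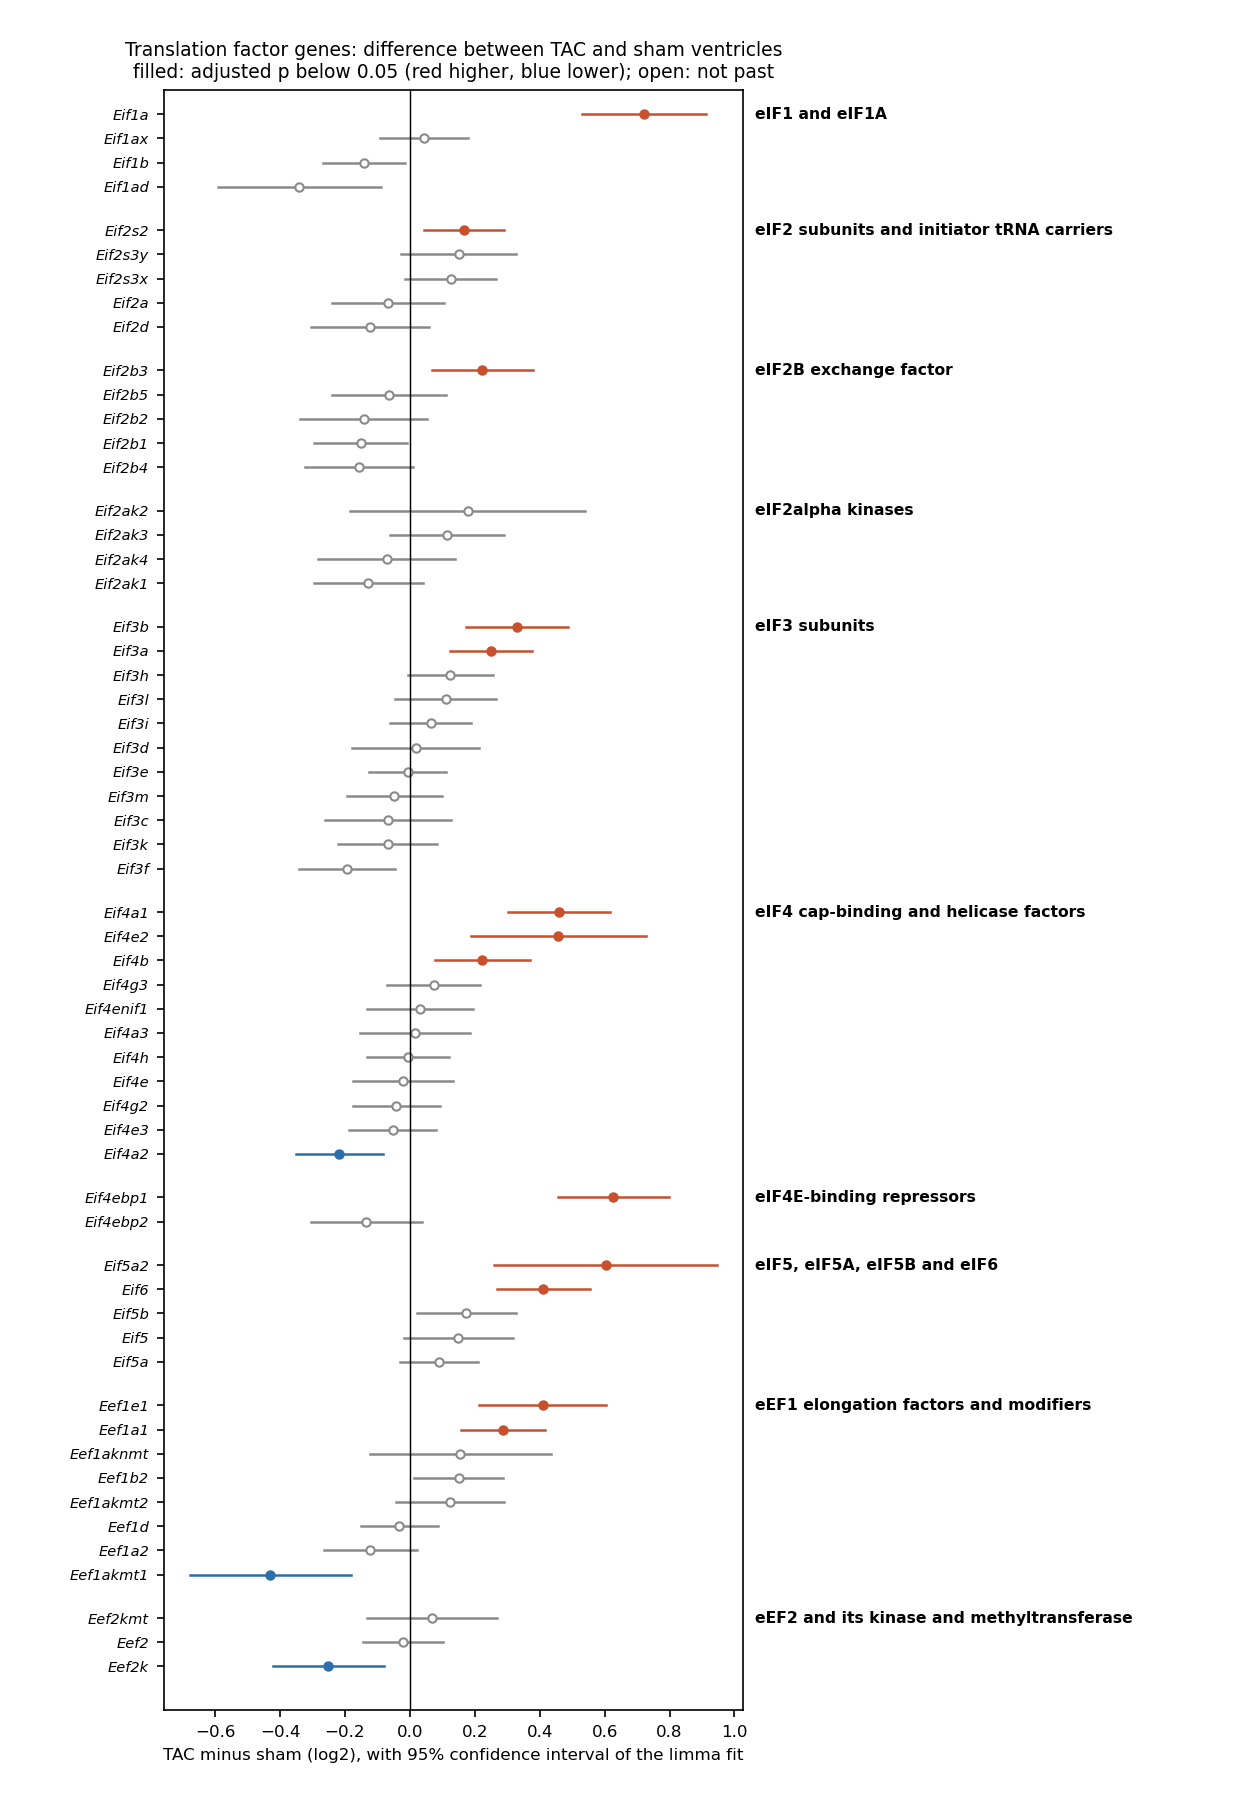
The difference between TAC and sham (log2, x axis) is shown for each of the 58 factor genes, grouped by role, as a point with the 95% confidence interval of the limma fit. Red points are the 13 genes higher in TAC and blue points the 3 lower, and most intervals of the open points span 0.

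Promoter sequence was examined because MYC-type and related factors that bind the E-box CACGTG are known to act on many translation genes. RefSeq windows of 300 bases (250 before and 50 after the start, GRCm38.p6) were at hand for 47 members, 62 windows in all, some of them of 1 gene. The E-box, a palindrome that reads the same on both strands, was found in 14 of 62 windows (22.6%) and in 7.15% of the 32851 windows of all genes. In the last 100 bases before and the 50 after the start the shares were 14.5% and 4.35%. The CRE TGACGTCA was in 1 window (1.61% beside 1.79%), that of Eef2, and the C/EBP-ATF element TGATGNAA, searched on both strands, in 2 (3.23% beside 3.97%), those of Eef2k and Eif2s3x. The E-box and the CRE share the run ACGT, and none of the 3 motifs contains another. The 14 windows with an E-box belong to 12 genes, and the windows of all genes were not matched to the members in base content or level. These shares are a description, and a match is not a bound site.

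The E-box was found among higher, lower and uncalled genes alike. It was in 3 of 9 higher genes with a window (Eif3a, Eif4a1 and Eif5a2), in 1 of 2 lower genes (Eef2k) and in 8 of 36 genes that did not pass, among them Eif4e and Eef2. The stretches around it in 2 higher genes, 1 lower gene and 2 genes that did not pass are shown to set these letters beside the outcomes, 5′ to 3′ on the strand of the gene, with the E-box in capitals.
Eif4a1, higher, chr11:69672577-69672642, minus strand: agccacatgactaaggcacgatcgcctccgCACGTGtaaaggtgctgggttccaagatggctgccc
Eif5a2, higher, chr3:28781105-28781170, plus strand: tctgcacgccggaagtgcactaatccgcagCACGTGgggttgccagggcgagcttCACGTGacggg
Eef2k, lower, chr7:120842770-120842830, plus strand: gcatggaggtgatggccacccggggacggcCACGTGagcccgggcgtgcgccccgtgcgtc
Eif4e, not past, chr3:138527174-138527239, plus strand: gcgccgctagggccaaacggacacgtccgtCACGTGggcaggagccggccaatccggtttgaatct
Eef2, not past, chr10:81176558-81176623, plus strand: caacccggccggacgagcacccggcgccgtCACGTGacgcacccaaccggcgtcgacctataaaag
The first base of the E-box lay 189 bases before the start in Eif4a1, 142 and 117 in Eif5a2, 31 in Eef2k, 64 in Eif4e and 43 in Eef2. Eif4e holds a second E-box, 228 bases before the start and outside the stretch shown.

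Of the factors that scan for the start codon, the eIF1 and eIF1A group, 1 of 4 genes passed. Eif1a, which encodes a form of eIF1A, a protein of the scanning complex, had the largest difference of all members. Its sham values were 10.22, 10.25, 10.32, 10.05 and 9.98, and its TAC values 10.82, 10.88, 11.02 and 10.81. All TAC arrays lay above all sham arrays. Its level was 1.65-fold higher in TAC (difference 0.72, SE 0.09, adjusted p = 0.000205). Its second probe set gave a difference of 0.97. Eif1ax, a close copy on the X chromosome, had a difference of 0.04 (95% confidence interval -0.09 to 0.18). The brightest Eif1a probe set is of a type that can match several transcripts. Eif1b lay below its sham values in every TAC array and did not pass (difference -0.14, adjusted p = 0.099). Eif1ad, a gene with an eIF1A domain, had a difference of -0.34 with an adjusted p of 0.0516, while its second probe set gave 0.27. Eif1b and Eif1ad each passed as lower in 4 of the 7 alternatives that kept all arrays.

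Of the eIF2 subunits and other carriers of the initiator tRNA, 1 of 5 genes passed. Eif2s2, the beta subunit of eIF2, had sham values of 12.38, 12.32, 12.43, 12.36 and 12.31 and TAC values of 12.52, 12.52, 12.55 and 12.52. The TAC arrays were nearly equal and all above sham, at a small difference of 0.17 (SE 0.06, adjusted p = 0.0492). Leaving out any of the 9 arrays ended this call, with adjusted p from 0.0583 to 0.12, and so did centring of the arrays, at 0.203. With only probe sets below 13 used, the call was lost too, at 0.0592. Its 5 other probe sets also had positive differences, from 0.11 to 0.32, and 1 of them passed. The gamma subunit genes on the X and Y chromosomes, Eif2s3x and Eif2s3y, had differences of 0.13 and 0.15 and did not pass. Eif2a and Eif2d, which can carry the initiator tRNA without eIF2, had -0.07 and -0.12 and did not pass.

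The exchange factor eIF2B reloads eIF2 with GTP and is the target that phosphorylated eIF2alpha blocks. Of its 5 subunits 1 passed. Eif2b3, the gamma subunit, was higher in TAC at 0.22 (SE 0.07, adjusted p = 0.0404). Its values were 9.38, 9.43, 9.52, 9.50 and 9.57 in sham and 9.67, 9.58, 9.82 and 9.74 in TAC, with the groups just apart between 9.57 and 9.58. The other 4 subunits, Eif2b1, Eif2b2, Eif2b4 and Eif2b5, had negative differences from -0.16 to -0.06, none past the threshold. The Eif2b3 call held without Sham 5 or TAC 2 and was lost on leaving out any of the other 7 arrays, with adjusted p up to 0.123, and with centred arrays, at 0.114.

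None of the 4 eIF2alpha kinase genes passed in limma, and 0 of 4 had an unadjusted p below 0.05. The count stayed 0 when a variance trend and robust fitting were used. These kinases answer to different stresses: Eif2ak1 to lack of haem, Eif2ak2 (PKR) to double-stranded RNA, Eif2ak3 (PERK) to unfolded protein in the endoplasmic reticulum, and Eif2ak4 (GCN2) to lack of amino acids. Eif2ak1 had sham values of 9.33, 9.02, 9.31, 9.21 and 9.23 and TAC values of 9.18, 9.04, 9.05 and 9.10 (difference -0.13, interval -0.30 to 0.04). Eif2ak3 had sham values of 7.91, 7.70, 7.85, 7.88 and 7.82 and TAC values of 7.94, 7.94, 8.12 and 7.78 (difference 0.11, interval -0.06 to 0.29). For Eif2ak4 the values were 7.90, 7.79, 7.98, 8.10 and 8.04 in sham and 7.90, 7.65, 8.04 and 7.97 in TAC (difference -0.07, interval -0.28 to 0.14). In these 3 genes the groups overlapped.

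Eif2ak2 was the kinase gene whose result turned on 1 array and on the probe set. Its brightest probe set read 8.58, 9.48, 9.05, 8.71 and 8.69 in sham and 9.12, 9.10, 9.11 and 9.01 in TAC. Sham 2 was above every TAC array and the sham SD of 0.37 was the largest of all members, so the difference of 0.18 did not pass (adjusted p = 0.484). Without Sham 2 the difference was 0.32 (adjusted p = 0.0349). The second probe set read 8.07, 7.81, 8.04, 8.19 and 7.95 in sham and 8.45, 8.61, 8.65 and 8.45 in TAC. There Sham 2 was the lowest array, the groups did not overlap, and the difference of 0.53 passed (SE 0.09, adjusted p = 0.00242 over all probe sets). The third gave 0.45 (adjusted p = 0.0731), and the mean of the 3 gave 0.38 (adjusted p = 0.00321).

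Of the 11 measured subunits of eIF3, the scaffold that holds the initiation complex together, 2 were higher and 0 lower. Both belong to the core of the complex. Eif3a, the largest subunit, had sham values of 11.83, 11.85, 11.85, 11.78 and 11.88 and TAC values of 12.09, 12.05, 12.16 and 12.05 (difference 0.25, SE 0.06, adjusted p = 0.0089). Eif3b, the scaffold subunit beside it, had sham values of 9.59, 9.53, 9.43, 9.57 and 9.56 and TAC values of 9.71, 9.88, 9.99 and 9.89 (difference 0.33, SE 0.07, adjusted p = 0.00644). In both genes every TAC array was above every sham array, and both kept their call when any array was left out. The other 9 subunits (Eif3c, Eif3d, Eif3e, Eif3f, Eif3h, Eif3i, Eif3k, Eif3l and Eif3m) ranged from -0.19 for Eif3f to 0.12 for Eif3h, with a median difference of 0.02 over all 11. Eif3f values in TAC all lay below those in sham, with an adjusted p of 0.0581, and passed without Sham 2 at -0.23 (adjusted p = 0.0221). Eif3e differed least (-0.01, interval -0.13 to 0.11).

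Of the 11 eIF4 cap-binding, helicase and scaffold genes 3 were higher and 1 lower. The helicase eIF4A, which unwinds the mRNA leader, is made from 2 closely related genes, and these passed in opposite directions. Eif4a1 read 12.50, 12.41, 12.49, 12.58 and 12.31 in sham and 12.86, 12.90, 13 and 12.91 in TAC (1.37-fold higher, difference 0.46, SE 0.07, adjusted p = 0.000979). Eif4a2 read 12.03, 12.10, 12.06, 12.12 and 12.12 in sham and 11.84, 11.85, 11.98 and 11.80 in TAC (1.16-fold lower, difference -0.22, SE 0.06, adjusted p = 0.024). Neither gene's groups overlapped. The Eif4a1 call held when any array was left out, and the Eif4a2 call was lost without Sham 4 or without TAC 1, 2 or 4, at adjusted p from 0.0585 to 0.0682. The third helicase, Eif4a3, best known from the exon junction complex, was dim here at a sham mean of 5.07 and had a difference of 0.02.

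The other eIF4 genes past the threshold were Eif4e2 and Eif4b. Eif4e2 encodes 4EHP, a cap-binding protein that does not recruit the eIF4G scaffold and is known to silence mRNAs. It read 10.46, 10.12, 10.49, 10.59 and 10.71 in sham and 10.97, 10.71, 10.93 and 11.12 in TAC, so that the highest sham and the lowest TAC array nearly met (difference 0.46, SE 0.12, adjusted p = 0.0193). Its 4 other probe sets gave differences from 0.42 to 0.51, and the call was lost without TAC 1 (adjusted p = 0.0518) or TAC 4 (0.0549). Eif4b, which aids the helicase, read 11.75, 11.77, 11.69, 11.71 and 11.54 in sham and 11.94, 11.87, 11.97 and 11.88 in TAC (difference 0.22, SE 0.07, adjusted p = 0.0299). That call was lost without Sham 3 or 4 or TAC 1, 2 or 3, at adjusted p up to 0.0877. It was also lost under centring of the arrays, at 0.145, and with the mean of its probe sets, at 0.0514.

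Eif4e, the cap-binding protein of general translation, did not pass. Its sham values of 12.32, 12.27, 12.34, 12.25 and 12.11 and its TAC values of 12.30, 12.29, 12.20 and 12.15 overlapped over most of their range (difference -0.02, interval -0.17 to 0.13). Eif4e3, Eif4g2, Eif4g3, Eif4h and Eif4enif1 also did not pass, with differences from -0.05 to 0.07. Eif4g1, the main scaffold, was not analysed here, since no probe set carries its name alone.

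**Figure D2:**
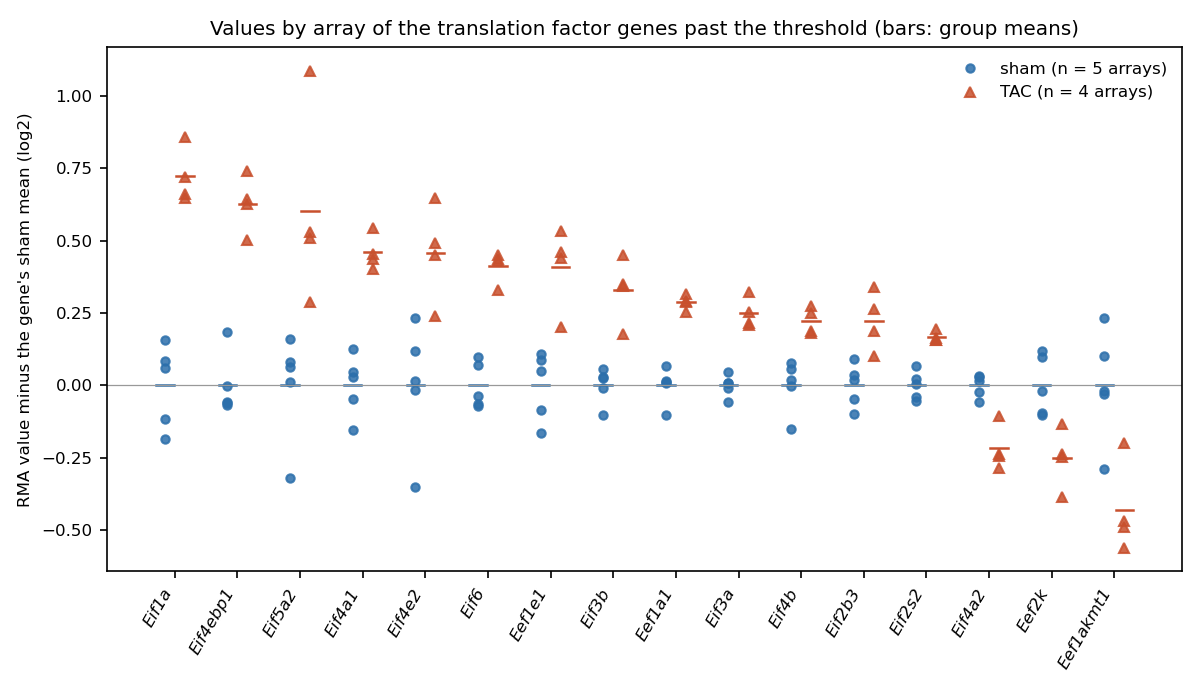
Each array's RMA value minus the mean of the gene's sham arrays (log2, y axis) is shown for the 16 members past the threshold, with bars at the group means. In 15 of the 16 genes the TAC triangles and sham circles do not overlap, and in Eef1akmt1 they do.

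The repressors that hold eIF4E while mTORC1 is inactive differed from each other. Eif4ebp1, the form known as 4E-BP1 and a target of ATF4 in stress, read 10.47, 10.54, 10.48, 10.48 and 10.72 in sham and 11.18, 11.04, 11.17 and 11.28 in TAC. All TAC arrays were above sham, 1.54-fold higher (difference 0.63, SE 0.08, adjusted p = 0.000237), and the call held when any array was left out. Its 2 other probe sets gave 0.51 and 0.33, both past. Eif4ebp2 read 9.80, 9.91, 9.89, 9.92 and 9.89 in sham and 9.64, 9.66, 9.72 and 9.97 in TAC, where TAC 4 lay above all sham arrays (difference -0.13, interval -0.31 to 0.04). Without TAC 4 the difference was -0.21 (adjusted p = 0.0384), and 1 of its 4 other probe sets passed at -0.31 (adjusted p = 0.0341 over all probe sets) while 2 others were positive.

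The cap-binding factor and its repressor were also set against each other within each array. Eif4ebp1 minus Eif4e was -1.72 ± 0.19 (SD, n = 5) in sham and -1.07 ± 0.16 (SD, n = 4) in TAC, a change of 0.65. In an exact two-sided permutation test over the 126 splits of the arrays p was 0.0159, where 0.00794 is the smallest that the design can give. The pair was chosen with earlier results known and its change is nearly all that of Eif4ebp1, so this p adds no evidence to the result for that gene. The value in Sham 5, -1.39, was the sham array nearest to TAC, whose lowest value was -1.25.

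Of 5 genes for eIF5, eIF5A, eIF5B and eIF6, which act at start-codon choice, subunit joining and beyond, 2 were higher and 0 lower. Eif6, which keeps the large subunit from joining too early and is needed to make it, read 9.24, 9.08, 9.10, 9.21 and 9.07 in sham and 9.47, 9.57, 9.59 and 9.57 in TAC (difference 0.41, SE 0.06, adjusted p = 0.00105). Eif5a2, the second gene for eIF5A, was dim and spread more widely. It read 6.78, 6.76, 6.85, 6.37 and 6.71 in sham and 7.78, 7.22, 7.20 and 6.98 in TAC (difference 0.60, SE 0.15, adjusted p = 0.0164). The size rests in part on TAC 1, without which the difference was 0.44, still past. Eif5a itself, the main form, had a difference of 0.09 (interval -0.03 to 0.21) with every TAC array above sham, but its second probe set gave -0.18, and its sign turned negative with the mean of both probe sets or with only probe sets below 13. Eif5b had 0.17 (adjusted p = 0.0933) and Eif5 0.15 (adjusted p = 0.185), although 1 of the 4 other probe sets of Eif5 passed at 0.40.

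In elongation, 2 of the 8 genes of the eEF1 group were higher and 1 was lower. Eef1a1, the general form of eEF1A, read 13.48, 13.36, 13.48, 13.48 and 13.54 in sham and 13.76, 13.75, 13.78 and 13.72 in TAC (1.22-fold higher, difference 0.29, SE 0.06, adjusted p = 0.00495). It is 1 of 5 members above 13, near the top of the scale, where differences can be compressed. Of the 311 genes above 13, 88 passed. Eef1a1 has 1 named probe set and many near-identical copies elsewhere in the genome, so the match of its probes to this gene alone is uncertain.

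Eef1a2 is the form of eEF1A that adult heart, skeletal muscle and neurons are known to use in place of Eef1a1. It read 11.92, 11.86, 11.80, 11.94 and 11.75 in sham and 11.73, 11.81, 11.67 and 11.72 in TAC (difference -0.12, interval -0.27 to 0.02, adjusted p = 0.213). The groups overlapped between 11.75 and 11.81. The within-array difference Eef1a2 minus Eef1a1 separated the groups fully: it was -1.61 ± 0.12 (SD, n = 5) in sham and -2.02 ± 0.07 (SD, n = 4) in TAC, a change of -0.41 with an exact two-sided permutation p of 0.00794, the smallest possible. Values ran from -1.79 to -1.50 in sham and from -2.11 to -1.94 in TAC. This shows an unequal change of 2 probe sets and not the ratio of the RNAs, and this pair too was chosen with earlier results known. Eef1a1 alone separated the groups and made up 0.29 of the change. This p therefore adds little to the result for Eef1a1 and is no test of Eef1a2.

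**Figure D3:**
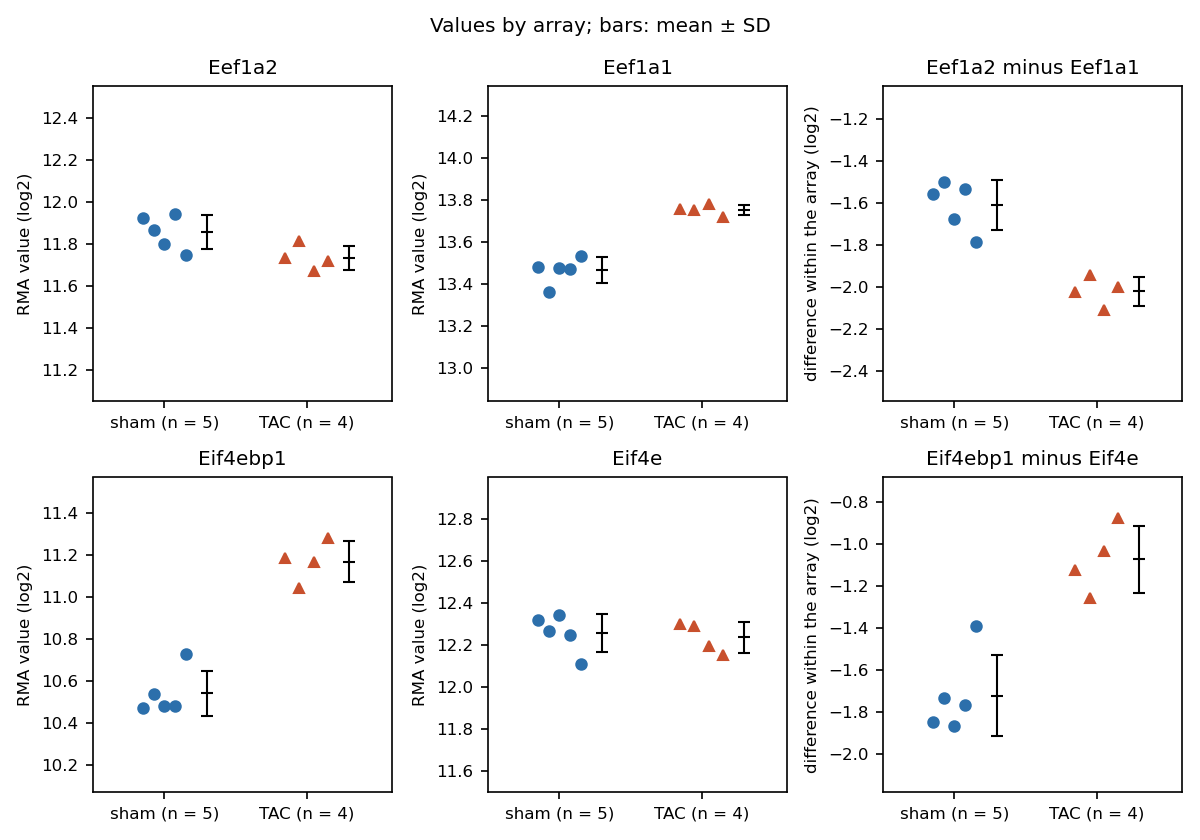
RMA values (log2, y axis) of Eef1a2, Eef1a1, Eif4ebp1 and Eif4e and the 2 differences within each array are shown for each sham (n = 5) and TAC (n = 4) array, with the mean and SD at the side. Both difference panels separate the groups, with sham at -1.79 to -1.50 and TAC at -2.11 to -1.94 for Eef1a2 minus Eef1a1.

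The other eEF1 genes past the threshold are not core subunits. Eef1e1, also called AIMP3, sits in the complex of aminoacyl-tRNA synthetases, and read 8.55, 8.38, 8.51, 8.57 and 8.30 in sham and 9.0, 8.90, 8.92 and 8.66 in TAC (difference 0.41, SE 0.09, adjusted p = 0.00697). Eef1akmt1, a methyltransferase that modifies a lysine of eEF1A, was lower. It read 10.85, 10.59, 10.86, 10.98 and 11.11 in sham and 10.39, 10.41, 10.32 and 10.68 in TAC, where TAC 4 lay above Sham 2 (difference -0.43, SE 0.11, adjusted p = 0.0175). The call was lost without TAC 1 (adjusted p = 0.0509) or TAC 3 (0.0592). Its 3 other probe sets were negative and 2 of them passed. The exchange factor subunits Eef1b2 and Eef1d, which reload eEF1A with GTP, had differences of 0.15 (adjusted p = 0.11) and -0.03. The methyltransferase genes Eef1akmt2 and Eef1aknmt had 0.12 and 0.16 and did not pass.

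Eef2, the translocase, did not pass. Its values were 12.82, 12.77, 12.72, 12.83 and 12.80 in sham and 12.76, 12.77, 12.73 and 12.80 in TAC, an interval of -0.14 to 0.10 around a difference of -0.02. Eef2k, the calcium-dependent kinase that inhibits eEF2, was lower in TAC. It read 12.01, 11.81, 11.82, 11.89 and 12.03 in sham and 11.78, 11.66, 11.52 and 11.67 in TAC (1.19-fold lower, difference -0.25, SE 0.08, adjusted p = 0.0364), with no overlap although Sham 2 and TAC 1 nearly met. The call was lost without Sham 1, 4 or 5 or TAC 2, 3 or 4, at adjusted p from 0.0628 to 0.113, and under cyclic loess at 0.05 after rounding. The next brightest probe set of the gene (mean 8.01) had a difference of -0.03, and the dimmest (mean 6.96) passed at -0.60. The brightest is of a type that can match several transcripts. Eef2kmt, a methyltransferase of eEF2, had a difference of 0.07 and did not pass.

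Further probe sets of a gene served as a check on its brightest one. The 11 called genes with further probe sets had 26 of them, all 26 with the same direction as the brightest and 12 past the threshold. The 31 other genes with further probe sets had 71, of which 42 took the direction of the brightest and 3 passed, those of Eif2ak2, Eif4ebp2 and Eif5. This contrast is a description, since many probe sets of genes that did not pass have differences near 0. Over all 45037 probe sets 17.7% passed, and adjusted over these the brightest probe sets of Eif2s2, Eif4b, Eif2b3 and Eef2k did not.

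**Figure D4:**
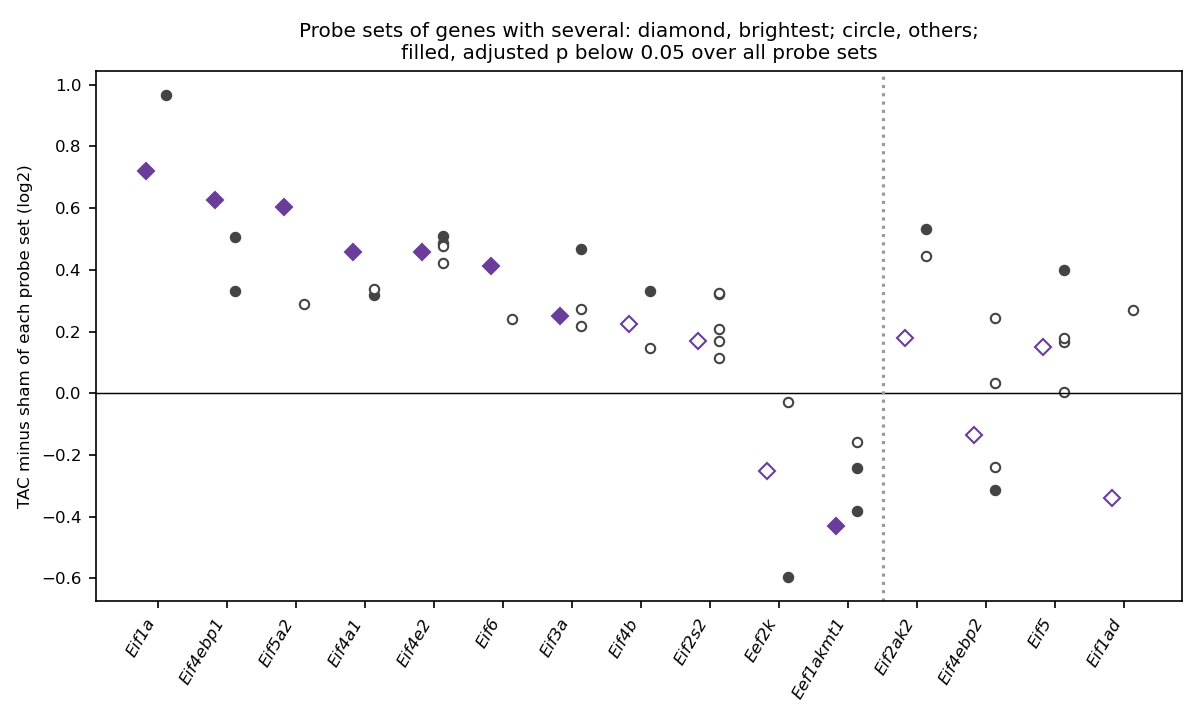
Differences between TAC and sham (log2, y axis) of every named probe set are shown for the called genes with several probe sets, left of the dotted line, and for Eif2ak2, Eif4ebp2, Eif5 and Eif1ad, right of it. Points of 1 gene lie on 1 side of 0 left of the line, and Eif1ad and Eif4ebp2 have points on both sides.

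The pathways upstream and downstream of these factors were read from lists of other genes. The list for the integrated stress response, the programme that starts when eIF2alpha is phosphorylated, held outputs and some regulators. Of 16 measured genes 4 were higher and 1 lower, beside 12.8% of all genes higher and 12.3% lower. With only genes above the median gene tested, 6 were higher and 1 lower, beside 21.2% and 24.2% of those genes. The median difference of the list was 0.33. Atf4, the central transcription factor of the response, read 11.49, 11.29, 11.40, 11.58 and 11.76 in sham and 12.28, 12, 12.32 and 11.84 in TAC (difference 0.61, SE 0.12, adjusted p = 0.00464). Nupr1, a stress-induced nuclear protein, had a difference of 2.14 (adjusted p = 9.01e-06). Ppp1r15a (GADD34), which directs the dephosphorylation of eIF2alpha, had 0.58 (adjusted p = 0.0132), and Atf3, named to complete the count, 1.64 (adjusted p = 0.0178). Vldlr, a lipoprotein receptor that ATF4 can induce, was lower at -0.21 (adjusted p = 0.0417), so it moved against the other called members. Leaving out 1 array gave 3 genes higher at the least, without TAC 3, and 7 at the most, without Sham 2 or Sham 5. No gene of the list was called lower without Sham 1, 2, 3 or 4 or without TAC 1, 2 or 3.

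The next list held the mTORC1 complex, its inputs, inhibitors among them, and the S6 kinases. Active mTORC1 releases eIF4E from its repressors. Of the 19 measured genes of the list 0 were higher and 2 lower, with a median of -0.14. The lower count is near the 12.3% of all genes lower. Castor2, related to a cytosolic arginine sensor that holds mTORC1 back, was lower at -0.37 (adjusted p = 0.00335). Ddit4l (REDD2), an inhibitor of mTORC1, was lower at -0.69 (adjusted p = 0.0213). It was dim, with a mean of 6.17 that lies below the array median, and had a sham SD of 0.42. As background, both are known for holding back the pathway that names the list. The lower count was 5 without Sham 2, 6 with centred arrays and 1 without TAC 3. With only genes above the median gene, with a variance trend and robust fitting, and with array weights, 1 gene was called higher.

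Among 15 partners of the cap complex, with poly(A)-binding proteins and MNK kinases, 3 were higher and 0 lower, with a median of 0.10. Of all genes 12.8% were higher. With only genes above the median gene tested, the counts of the list were the same and 21.2% of genes were higher, so the list was near that share. Pabpc1, which binds the poly(A) tail and eIF4G, read 11.29, 11.17, 11.28, 11.35 and 11.50 in sham and 11.63, 11.81, 11.71 and 11.71 in TAC (difference 0.40, SE 0.08, adjusted p = 0.00346). Abce1, which splits ribosomes for recycling, had a difference of 0.29 (adjusted p = 0.00807). Mknk2, a kinase that phosphorylates eIF4E, had 0.25 (adjusted p = 0.013). The counts of 3 and 0 were the same when any 1 array was left out.

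Enzymes that make the special residues of eIF5A (hypusine) and eEF2 (diphthamide) gave 1 higher and 1 lower of 9, with a median of 0.04, near the shares of all genes. Dph5, a methyltransferase of diphthamide synthesis, read 9.34, 9.11, 9.31, 9.32 and 9.36 in sham and 9.86, 9.84, 9.91 and 10.05 in TAC (difference 0.63, SE 0.07, adjusted p = 0.00019). Dohh, which completes hypusine, was lower at -0.35 (adjusted p = 0.0142), and without TAC 3 no gene of this list was called lower.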

How the data were processed

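Left ventricular RNA was amplified, labelled with biotin and hybridised to Affymetrix arrays, per the labels' protocols. The deposited table holds log2 values. The submitters' processing notes name RMA, without a version, as the method the authors used. RMA gives all arrays the same distribution, so a general change of RNA is not visible. Of the probe sets, 34945 had 1 symbol, 932 several and 9160 none listed, and 64 were controls. Precision is limited by the number of arrays. The 58 members, all matched to RefSeq by gene ID, were fitted with every other gene by limma 3.58.1 under R 4.3.3 (lmFit, then eBayes, TAC minus sham, no covariate, 7 residual and 3.27 prior degrees of freedom, two-sided). The within-array differences were compared by exact permutation, also in R 4.3.3. Motifs were searched on both strands of RefSeq windows in Python 3.11.15.

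The members, gene lists and tests were chosen with earlier results of these data known. Every Eif or Eef gene could be named; values in every array were given for up to 12 called genes per direction by smallest p (13 were higher, and Eif2s2 was added as the last) and for the kinases, repressors, Eif4e and the eEF1A and eEF2 genes; of the other lists up to 3 called genes per direction were named. The fit was tested on simulated data. Alternatives covered the choice of probe set, a filter on dim genes, the scaling (centring or cyclic loess), a variance trend with robust fitting, weights on arrays, a threshold of 0.01 on the adjusted p, and omission of single arrays. Eif1, Eif2s1, Eif3g, Eif3j, Eif4g1, Eif4ebp3, Eef1g, Rps6kb1, Gdf15, Mtrf1 and Mtrfr were not analysed here. Of 8 probe sets with several symbols and an Eif or Eef gene among them, 2 passed over all probe sets and were not used.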

Additional observations from a re-analysis of the deposited data

Results flagged for a closer look

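Of 116 groups of arrays (58 members, sham and TAC), 6 had 1 array apart from the others by Dixon's criterion, and chance flags about 1 in 20 groups. Among the sham arrays, Eif3e had its lowest value in Sham 2 (12.75, the next 12.82) and so did Eif4g3 (10.28, the next 10.41). Sham 1 was lowest for Eif4ebp2 (9.80, the next 9.89) and for Eif4g2 (12.84, the next 12.95). For Eif4ebp1, Sham 5 was the highest at 10.72, with the next at 10.54, and it was still below the lowest TAC array. In the TAC group Eif6 had its lowest value in TAC 1 (9.47, the next 9.57), above every sham array.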

How the results depend on the processing

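Under the alternatives run, Eif1a, Eif4ebp1, Eif4a1, Eif6, Eef1a1, Eif3b, Eef1e1, Eif3a and Eif5a2 kept their direction and passed an adjusted p of 0.05 whichever array was left out, and no called gene changed sign. Members called numbered 10 to 19 when 1 array was left out, with 9 to 13 higher and 1 to 6 lower: 10 without TAC 1 and 19 without Sham 2. Lower members numbered 6 with only genes above the median gene, 6 with a variance trend and robust fitting, 7 with array weights and 8 with centred arrays. Eif1ad, Eif1b and Eif3f passed as lower in each of these settings. At an adjusted p below 0.01, 2608 genes passed (1356 higher, 1252 lower), among them 8 members (8 higher, 0 lower) and 8 genes of the other lists. Of members that did not pass, 15 took the other sign under some alternative without passing there. The within-array differences separate the groups fully, so leaving out 1 array could not take them past 0.05 and is no test of stability. Their values were then, for Eif4ebp1 minus Eif4e per array, from 0.58 to 0.73 and, for Eef1a2 minus Eef1a1 per array, from -0.45 to -0.38; without probe sets above 13 the second has no value, as Eef1a1 drops out. No paired analysis was possible because the labels carry no replicate numbers and name no shared animal, litter or day. The number of arrays and probe sets near the top (Eef1a1) or bottom (Eif4a3) of the scale limit what small differences can show.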

Other observations

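Translation inside mitochondria has its own set of factors, and 9 of these were measured. In TAC 5 were lower and 0 higher, beside 12.3% of all genes lower, and the median difference was -0.24. With only genes above the median gene tested, 5 were again lower, beside 24.2% of those genes. Gfm1, the mitochondrial translocase, read 12.04, 11.98, 12.16, 12.11 and 12.29 in sham and 11.73, 11.58, 11.72 and 11.94 in TAC (limma difference -0.37, SE 0.09, adjusted p = 0.012). Tufm, the mitochondrial counterpart of eEF1A, was lower at -0.33 (adjusted p = 0.0108), and Mtrf1l, a release factor, at -0.35 (adjusted p = 0.00471). Mtif2, an initiation factor, and Mrrf, which recycles the ribosome, were named to complete the count and were lower at -0.25 and -0.24. In all 5 genes every TAC array was below every sham array, and 4 to 6 genes passed when 1 array was left out. The difference between these and the cytosolic factors was not tested.

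Termination and ribosome rescue had 2 genes higher and 1 lower of 7, beside 12.8% of all genes higher and 12.3% lower. With only genes above the median gene tested, these counts were the same, beside 21.2% higher and 24.2% lower. The release factor pair Etf1, which reads the stop codon, and Gspt1, its GTPase partner, were higher at 0.39 (SE 0.09, limma adjusted p = 0.00863) and 0.28 (SE 0.07, adjusted p = 0.0104). Etf1 read 11.42, 11.35, 11.35, 11.25 and 11.05 in sham and 11.73, 11.66, 11.77 and 11.53 in TAC, so the groups did not overlap. Gtpbp1, a GTPase linked to rescue of stalled ribosomes, was lower at -0.27 (adjusted p = 0.0417), and no gene of the list was called lower without Sham 1, 3 or 4 or without TAC 1, 3 or 4.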
